A study of Caenorhabditis elegans with 2 samples.

Results

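The heterochronic genes set the order and timing of stage-specific cell fates in *C. elegans* larvae. All 10 genes listed for this account (lin-28, lin-42, puf-9, lin-14, lin-4, let-7, lin-41, hbl-1, lin-46 and lin-29) were found in the WBcel235 annotation, 8 of them protein-coding and 2 miRNA genes, among 19973 protein-coding and 261 miRNA genes. They were taken by name, not by a signal cut-off, but the list was chosen with earlier results of these data known. Chromatin immunoprecipitation followed by sequencing was aimed at the zinc finger protein LSY-2 in 2 biological replicates of whole L4 larvae. The antibody is labelled by LSY-2, which does not tell whether it recognised the tag or the protein itself. The animals were of strain OP240, genotype unc-119(ed3) III; wgIs240, an integrated transgene line for eGFP-tagged lsy-2, with male and female animals pooled and age not stated. There was 1 group and no second condition, so no change can be read from these data, and whole animals do not tell which cells gave a peak. The files used state no read totals, and the depth of both libraries is unknown.

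In the heterochronic pathway the miRNA lin-4 represses lin-14 and lin-28 as larvae leave the first stage, and let-7 and its family later repress lin-41 and hbl-1. LIN-28 is an RNA-binding protein that blocks the maturation of let-7, and LIN-41 holds back the zinc finger factor LIN-29, which starts the switch to the adult epidermis. The pathway was found through seam cells of the epidermis that repeat or skip larval divisions when one of these genes is lost.

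The authors deposited candidate regions, strong and weak, for replicate 1 (25003), replicate 2 (24002) and both pooled (22035), and an optimal list of the 1563 strongest pooled ones. Of the 10 genes, 4 had an optimal peak with its summit, the base of highest signal, within 500 bp of an annotated transcript start: puf-9, lin-28, lin-42 and lin-14. Signal values are the authors' own and were used here to rank peaks within a list. They were 309.6 at puf-9, 130.2 at lin-28, 67.1 at lin-42 and 63.5 at lin-14. A wider rule, a summit within 5 kb of a start or inside an intron, added let-7 and lin-41. The largest cluster lay at lin-14, with 8 optimal summits over 17.7 kb, 6 of them in introns. No optimal summit met either rule at lin-4, hbl-1, lin-46 or lin-29.

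The 4 genes with a start summit were 4 of the 8 protein-coding members. The same call was made for 4.78% of all protein-coding genes and for 9.58% of miRNA genes, where neither member was called. By the wider rule 5 of 8 protein-coding members were called against 15.1% of protein-coding genes, and 1 of 2 miRNA members against 26.1% of miRNA genes. Longer genes offer more room: of the 998 protein-coding genes of 10 kb or longer, 22.0% met the wider rule and 7.41% had a start summit. Of the 3 members that long, lin-14 and lin-42 met both and lin-29 neither. No test was applied to these counts, and the members were chosen with earlier results of these data known.

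The sequences at 5 of the summits are shown as examples of windows with and without the motifs counted further on: that of puf-9, the strongest peak and the start peak of lin-14, the intronic lin-42 peak, and the peak upstream of let-7. Each is 101 bases centred on the summit, from the RefSeq copy of WBcel235 (ce11), written along the gene's own strand. The windows are chrX:5841251-5841351 (plus strand) for puf-9, chrX:11472105-11472205 and chrX:11465306-11465406 (plus strand) for lin-14, chrII:1247032-1247132 (minus strand) for lin-42 and chrX:14747080-14747180 (minus strand) for let-7. Capitals mark copies of 3 motifs searched on both strands. One is GAGAGA, which reads TCTCTC on the other strand. Another is ACGCAG, which reads CTGCGT. The last is CGTCTC, which reads GAGACG. They were chosen because earlier work on these data found them at summits of the whole list.
puf-9, 291 bp upstream of the start: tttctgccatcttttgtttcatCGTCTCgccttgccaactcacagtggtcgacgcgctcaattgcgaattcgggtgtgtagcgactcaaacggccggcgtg
lin-42, intron 1: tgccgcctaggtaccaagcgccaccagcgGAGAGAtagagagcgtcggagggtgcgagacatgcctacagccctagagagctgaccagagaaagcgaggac
lin-14, intron 3: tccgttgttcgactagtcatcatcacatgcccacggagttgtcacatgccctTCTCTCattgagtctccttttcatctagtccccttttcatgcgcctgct
lin-14, 204 bp upstream of the start: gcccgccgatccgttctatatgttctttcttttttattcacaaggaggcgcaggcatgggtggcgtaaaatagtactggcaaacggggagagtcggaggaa
let-7, 1809 bp upstream of the first start: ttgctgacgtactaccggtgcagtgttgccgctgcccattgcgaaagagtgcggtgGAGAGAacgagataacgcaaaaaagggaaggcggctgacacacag

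puf-9 encodes a Pumilio family RNA-binding protein that helps repress hbl-1. It is WBGene00004245, on the plus strand of chromosome X from 5841592 to 5845987. Its peak lay upstream of its only annotated start and was the strongest among the 10 genes. It ranked 121 of 1563 by signal in the optimal list, 149 of 25003 candidates in replicate 1 (signal 121.3) and 104 of 24002 in replicate 2 (signal 190.3). The replicate summits were 3 bp apart. The replicate lists have separate scales, so their signals are given side by side and were not averaged. Protein-coding genes next to puf-9 by start signal were trap-2, above it at 316.4, and Y45F10D.7, below it at 306.8. The summit also lay inside the short noncoding RNA genes W06B11.7 and W06B11.9, 49 and 116 bp from their starts, and 1.52 kb upstream of dct-11 on the other strand. A single peak cannot be given to one of these genes by position alone. Outside the optimal list puf-9 had 2 pooled candidates, with signals of 22.0 and 18.7.

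lin-28 (WBGene00003014, minus strand of chromosome I, 8407630 to 8410804) had a pair of optimal summits, on either side of its first exon. The stronger, with a pooled signal of 130.2 and rank 427, lay in the first intron of the longer transcript, 99 bp upstream of the start of the shorter one. It ranked 697 in replicate 1 and 345 in replicate 2, with summits 9 bp apart. The second, with a signal of 89.8 and rank 783, lay 559 bp upstream of the first start, just beyond the 500 bp limit. It ranked 886 in replicate 1 and 781 in replicate 2. No other gene start lay within 500 bp of either summit, and the closest was that of F02E9.7, 1.06 kb from the upstream one. By start signal the neighbours of lin-28 were F28C10.3 at 132.0 and rsp-2 at 129.9.

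lin-42 encodes a relative of the PERIOD clock proteins that lowers transcription of timing miRNA genes. It is WBGene00018572, on the minus strand of chromosome II from 1233236 to 1252359, with 7 annotated transcripts and 5 different starts. Its stronger optimal peak was intronic. That summit, with a signal of 134.3 and rank 408, lay in the first intron of the longest transcript, 8.17 kb long, and 3.05 kb upstream of the next start. It ranked 471 in replicate 1 and 458 in replicate 2, and the replicate summits were 11 bp apart. The short noncoding genes F47F6.15 and F47F6.13 start within 71 and 114 bp of it.

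The peak that gave lin-42 its start call was weaker, with a signal of 67.1 and rank 1285, and lay 261 bp downstream of the start of an internal transcript, in a coding exon of some transcripts and an intron of others. It ranked 1273 in replicate 1 and 1030 in replicate 2. The replicate summits were 116 bp apart there, against a median of 23.5 bp over all optimal peaks. ccar-1 (67.12) and btf-1 (67.02) were its neighbours by start signal. The first annotated start of lin-42 had no optimal summit within 5 kb upstream, and the 2 pooled candidates there had signals of 18.6 and 17.8.

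lin-14 encodes a nuclear DNA-binding protein whose fall ends the first larval programme. It is WBGene00003003, on the plus strand of chromosome X from 11465560 to 11485871, with 2 annotated starts. The first optimal summit lay 910 bp upstream of the first start with a signal of 66.6, and the next lay 204 bp upstream with 63.5. Inside the gene, counted from the first start, summits followed at 1.99 kb in intron 1 (110.1) and at 3.46 kb in intron 2 (60.6).

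**Figure D1:**
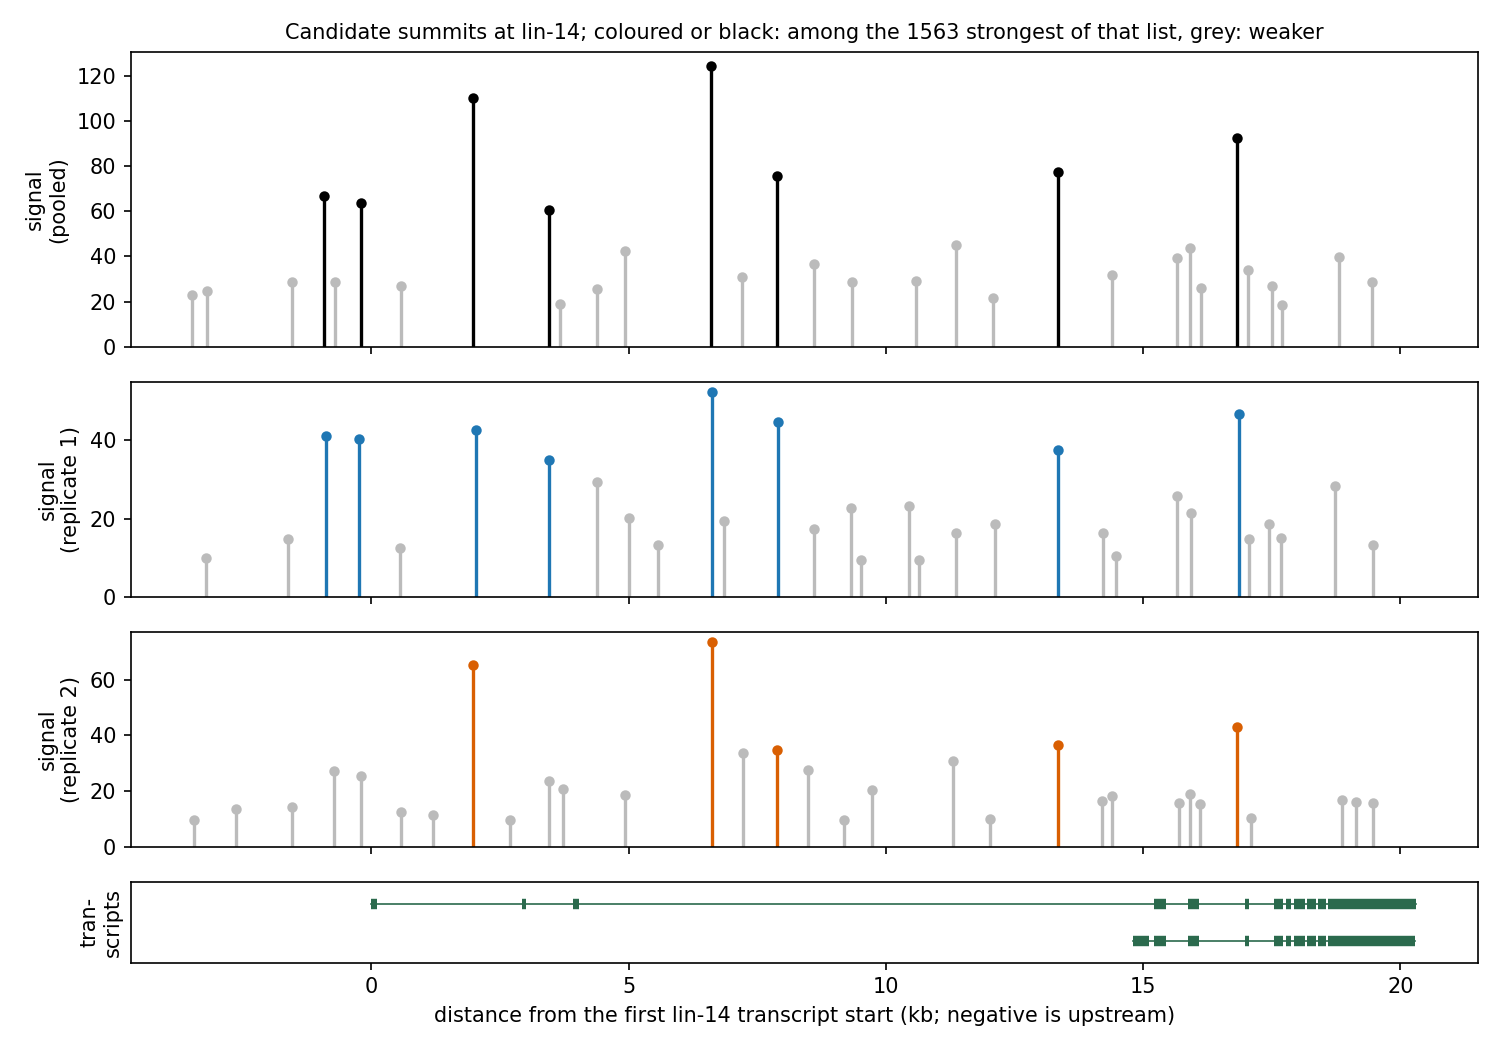
Candidate summits at lin-14 by distance from the first transcript start in kb (x axis, negative is upstream) and by signal (y axis, each list on its own scale), for the pooled list, replicate 1 and replicate 2, above the 2 annotated transcripts with exons as boxes. Black or coloured points are among the 1563 strongest of their list and grey points are not: 8 in the pooled list, 8 in replicate 1 and 5 in replicate 2.

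Intron 3 of lin-14, 11.2 kb long, held 3 optimal summits at 6.59, 7.88 and 13.4 kb, with signals of 124.6, 75.8 and 77.3. The last summit, at 16.8 kb in intron 5, had a signal of 92.3 and lay 2.03 kb downstream of the second start. Neighbouring summits were 0.706 to 5.48 kb apart. The strongest peak of the cluster therefore lay away from both starts, and the start peak was 1 of the 2 weakest.

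**Figure D2:**
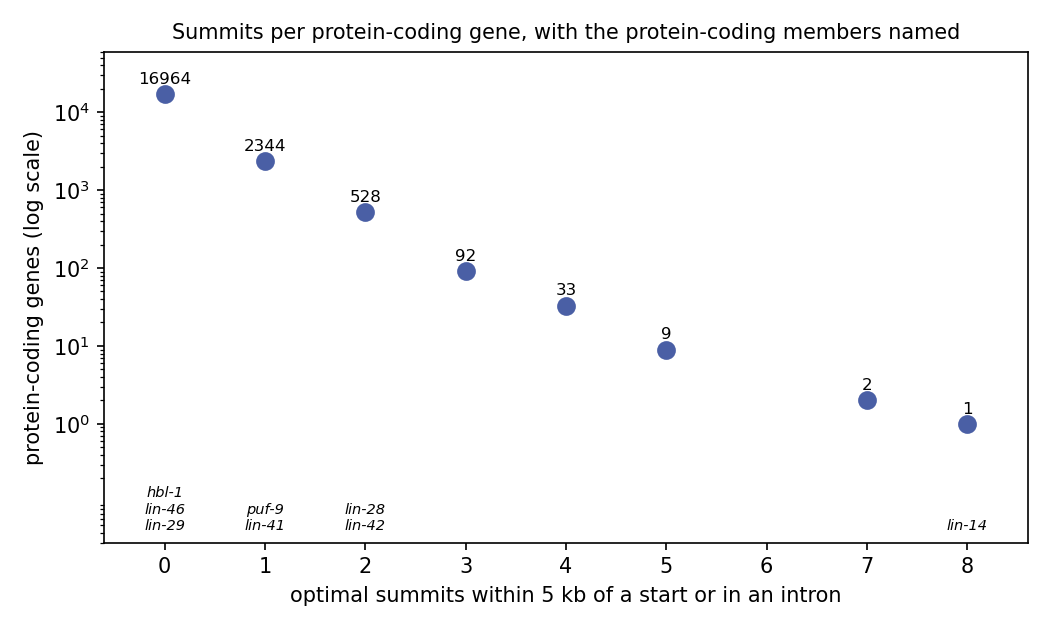
Number of protein-coding genes (y axis, log scale, value printed above each point) by number of optimal summits within 5 kb of a start or in an intron (x axis), with the 8 protein-coding timing genes named along the bottom. lin-14 is the gene with 8.

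lin-14 had more optimal summits by the wider rule than any other protein-coding gene. ppfr-1 and vhp-1 followed with 7 each, and 9 genes had 5. Only 3.33% of protein-coding genes had 2 or more, a count that lin-28, lin-42 and lin-14 met. An intronic optimal summit was present in 1.31% of protein-coding genes and in 10.6% of those of 10 kb or longer, and lin-14 and ppfr-1 had the highest number with 6. Of 281 introns of at least 8 kb in protein-coding genes, 41 (14.6%) held an optimal summit, and 6 held 3 or more. Inside lin-14 there were 0.295 optimal summits per kb against 0.0156 per kb over the genome. Pooled candidates were also dense inside lin-14, 1.23 per kb against 0.220, so the whole locus was rich in called regions. Density did not set lin-14 far apart from all other members. lin-28 had more optimal summits per kb, 0.315, from 1 summit in 3.175 kb. Pooled candidates were densest in lin-14, but let-7 and lin-46 came close with 1.15 and 1.07 per kb, from 2 each and with 0 optimal summits inside. In replicate 2 let-7 was denser than lin-14, 1.73 against 1.28 per kb. The remaining members were below lin-14 in both optimal and pooled density. lin-14 was singled out after these counts were seen.

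The lin-14 cluster differed between replicates. In replicate 1 all 8 had a candidate among that list's 1563 strongest, with ranks from 581 to 1189. In replicate 2 the candidates matched to the 2 upstream summits and the one in intron 2 ranked 2396, 2713 and 3222, and the other 5 ranked from 412 to 1477. At the first upstream peak the replicate summits were 159 bp apart, the widest gap of the 15 linked peaks. Its replicate 2 summit, at base 11464842, lay closer to a weaker pooled candidate at 11464854 (signal 28.7) than to the optimal summit at 11464650. It may therefore be a different site. Using as many of the strongest candidates of replicate 2 alone, lin-14 had 5 summits, 3 genes had more (vhp-1, din-1 and ppfr-1) and 13 others had as many. With the 781 strongest optimal peaks it had 3, while 7 genes had more and 33 others had as many. Noncoding RNA genes lay close to several of these summits: T25C12.10 starts 13 bp from the first, T25C12.8 51 bp from the second, and T25C12.7 16 bp from the one in intron 1. The start of T25C12.9 was within 500 bp of both upstream summits, and that of T25C12.6 lay 256 bp from the one at 7.88 kb.

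let-7 is the miRNA that acts late in larval life. The gene is WBGene00002285, annotated on the minus strand of chromosome X from 14743590 to 14745321, with 4 annotated primary or precursor transcripts. The optimal summit 1.81 kb upstream of its first start had a signal of 87.0 and rank 833. It lay nearer to another gene, 173 bp upstream of the start of wshc-2 on the opposite strand, so position alone does not assign it to let-7. It ranked 2339 in replicate 1 and 634 in replicate 2. At the let-7 starts themselves there were 3 pooled candidates, none in the optimal list, with signals of 39.3, 34.2 and 29.2. The replicates differed on which was stronger. In replicate 1 a candidate 201 bp upstream of a start ranked 1888 (signal 27.5), above the upstream peak (25.1). In replicate 2 the strongest start candidate ranked 6430, below that peak.

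lin-41 encodes a TRIM-NHL RNA-binding protein and is a main target of let-7. It is WBGene00003026, on the minus strand of chromosome I from 9334800 to 9342496. It had 1 optimal summit, 1.57 kb upstream of its first start, with a signal of 163.3 and rank 299, the second strongest of the 15 linked peaks after puf-9. It ranked 436 in replicate 1 and 294 in replicate 2, and the replicate summits were 1 bp apart. No other annotated start lay within 5 kb, since the closest was that of M04C9.2 at 5.51 kb. No pooled candidate lay within 500 bp of a lin-41 start.

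**Figure D3:**
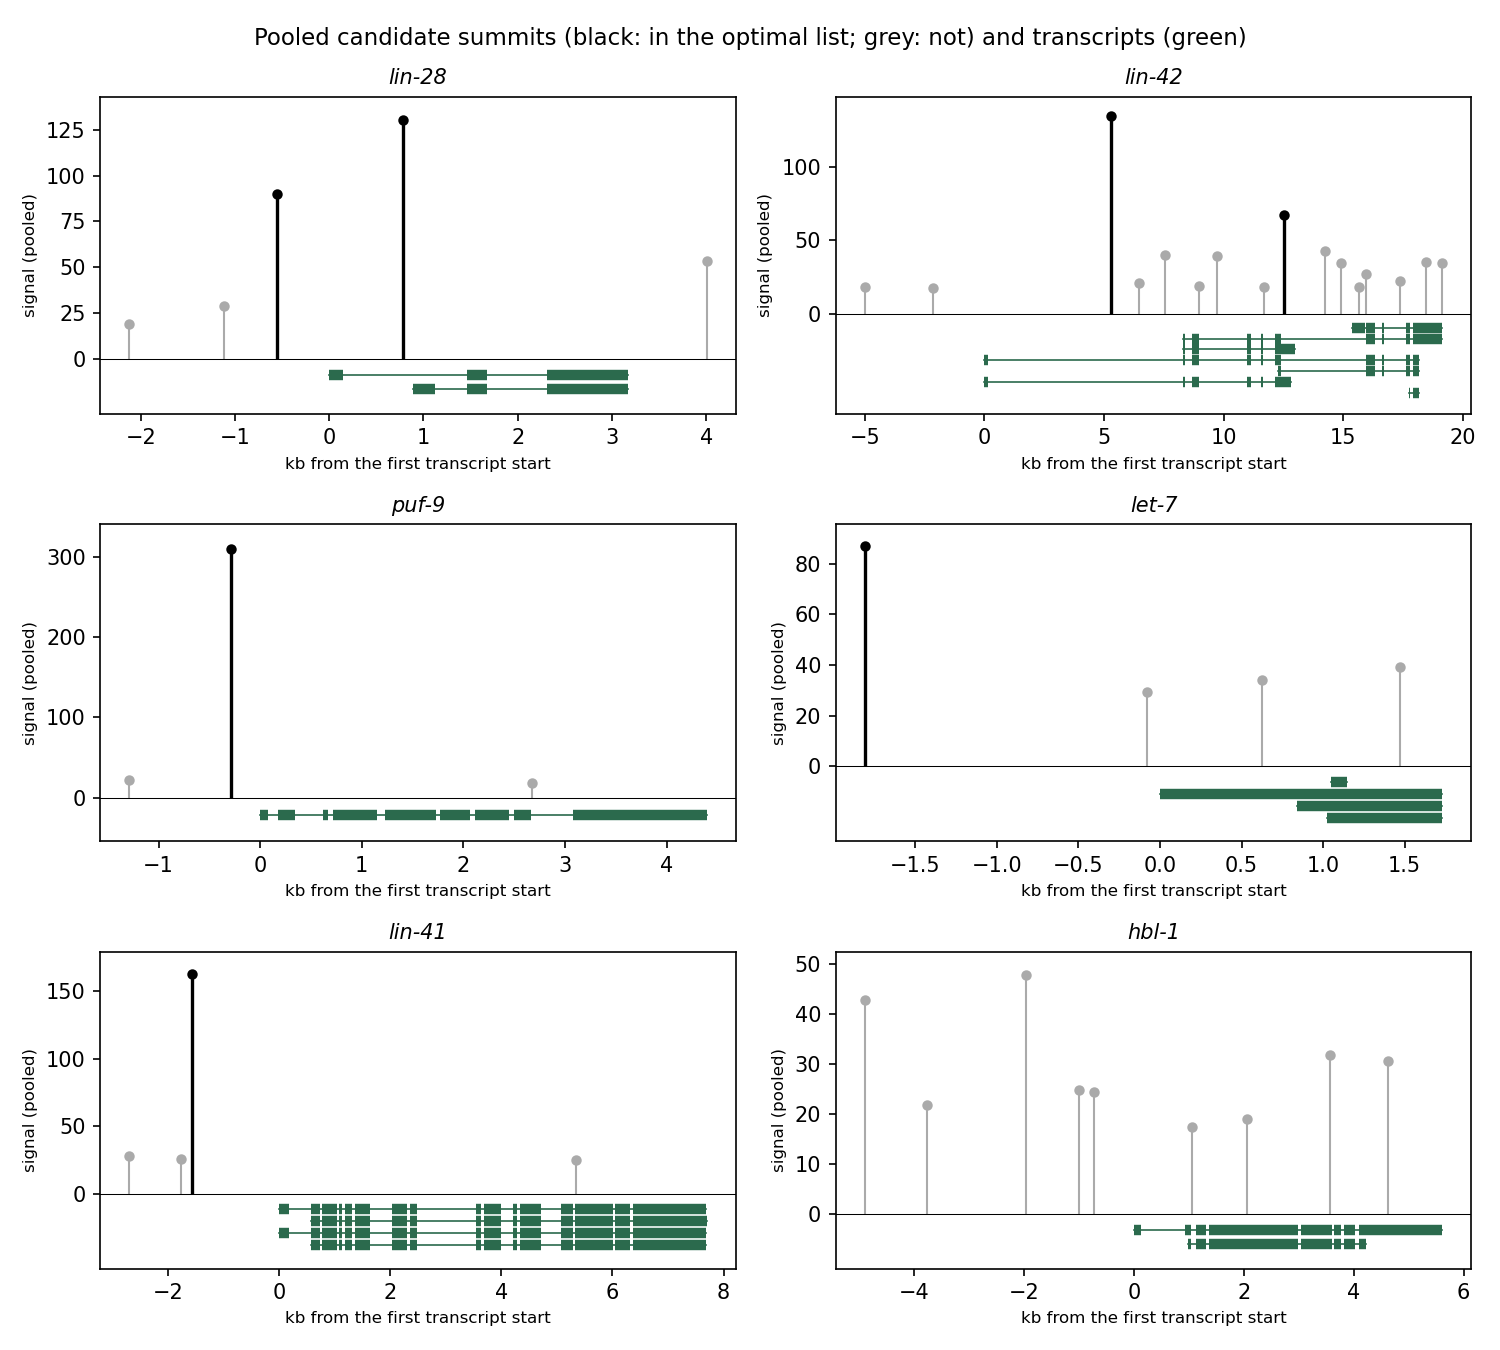
Pooled candidate summits at lin-28, lin-42, puf-9, let-7, lin-41 and hbl-1 by distance from the first transcript start in kb (x axis) and by signal (y axis, scaled per gene), with transcripts in green below. Black summits are in the optimal list: 2 at lin-28, 2 at lin-42, 1 each at puf-9, let-7 and lin-41, and 0 at hbl-1.

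lin-4, the first miRNA found and the repressor of lin-14, had no optimal summit nearer than 16.0 kb. The gene (WBGene00002993, chromosome II, 5902254 to 5902347, plus strand) lies in an intron of the protein-coding gene F59G1.4. Its strongest pooled candidate within 5 kb ranked 2265 with a signal of 48.9, 2.95 kb upstream. The closest pooled candidate lay 502 bp upstream, just outside the window, with a signal of 26.2 and rank 8758. Each replicate had 1 candidate within 500 bp, ranked 11997 and 13625.

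hbl-1 encodes a Hunchback-like zinc finger factor of early larval fates (WBGene00001824, chromosome X, 5822142 to 5827755, plus strand). The nearest optimal summit was 9999 bp upstream with a signal of 64.4. Its 9 pooled candidates within 5 kb or in introns reached a signal of 47.8 and rank 2377, 1.97 kb upstream. That one ranked 1844 in replicate 2, while the strongest candidate of replicate 1 ranked 3724 and lay elsewhere. The strong puf-9 peak lay on the far side of hbl-1, 13.5 kb past its end.

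lin-46 encodes a gephyrin-like protein that acts downstream of lin-28 (WBGene00003031, chromosome V, 12968855 to 12970730, plus strand). Its nearest optimal summit was 112.5 kb away, the farthest of the 10 genes. The strongest pooled candidate lay 859 bp upstream with a signal of 40.6 and rank 3358. In replicate 1 the candidate there ranked 1248, inside that list's 1563 strongest, but in replicate 2 no linked candidate ranked above 2121.

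lin-29 encodes the zinc finger factor that acts last in the pathway (WBGene00003015, chromosome II, 11917642 to 11935343, minus strand). Its nearest optimal summit was 25.5 kb away. A 10.5 kb intron, close in size to the long intron of lin-14, held 7 pooled candidates and 0 optimal summits. The strongest ranked 2567 with a signal of 46.1 and lay 5.14 kb upstream of the last start. It ranked 3813 in replicate 1 and 4202 in replicate 2.

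**Figure D4:**
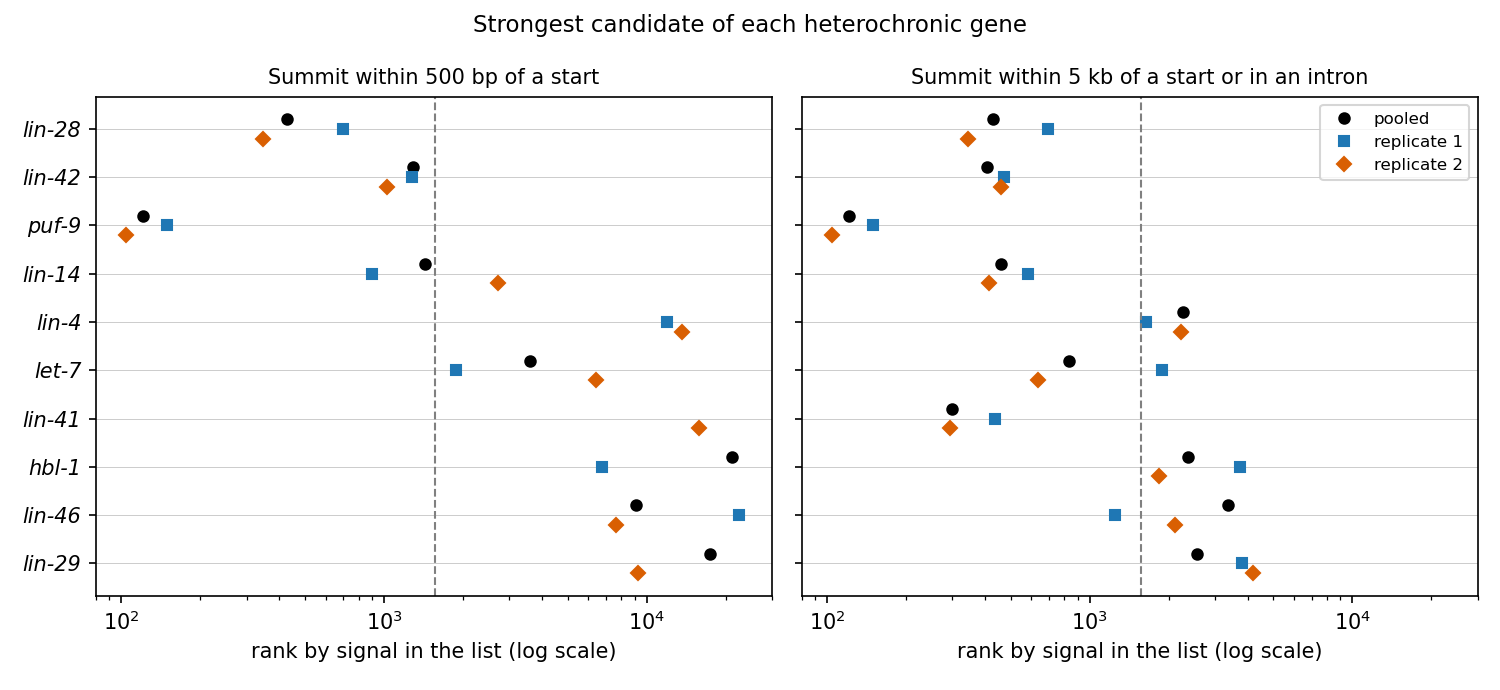
Rank by signal (x axis, log scale) of the strongest candidate of each timing gene in the pooled, replicate 1 and replicate 2 lists, within 500 bp of a start (left) and within 5 kb or in an intron (right). A missing point means no such candidate, and the dashed line marks rank 1563, where the optimal list ends. In the right panel lin-28, lin-42, puf-9, lin-14 and lin-41 lie left of it in all 3 lists.

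The order of the genes by their strongest linked peak in the pooled list was puf-9 (rank 121), lin-41 (299), lin-42 (408), lin-28 (427), lin-14 (459), let-7 (833), lin-4 (2265), hbl-1 (2377), lin-29 (2567) and lin-46 (3358). lin-42, lin-28 and lin-14 sat close together, at ranks 408 to 459, and their order changed in the replicates: lin-42 came before lin-14 and lin-28 in replicate 1 (471, 581 and 697), and lin-28 before lin-14 and lin-42 in replicate 2 (345, 412 and 458). puf-9 was first and lin-41 next in both replicates. let-7 (1888) came after lin-46 (1248) and lin-4 (1638) in replicate 1, but in replicate 2 it ranked 634, before both. Of lin-4, hbl-1, lin-29 and lin-46, the order also differed between replicates.

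The optimal list ended at a signal of 60.26, and the first pooled candidate left out had 60.23. The member summit closest inside the limit was that of lin-14 in intron 2, at 60.6. The closest outside was a candidate 3.12 kb downstream of a lin-28 start, at 53.4 with rank 1934. That summit, at base 8406798, lay beyond the end of lin-28. It was just upstream of the protein-coding gene F02E9.1, which begins at 8406828 on the plus strand, so position alone does not assign it to lin-28.

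Among all candidates, whatever their rank, a summit within 500 bp of a start was common. The pooled list gave one for 8 of 10 timing genes, against 29.8% of protein-coding genes and 33.0% of miRNA genes, with lin-4 and lin-41 lacking one. Replicate 1 gave 8 of 10, against 32.1% of protein-coding and 36.8% of miRNA genes. Replicate 2 gave 9 of 10, against 31.3% and 32.6%. By the wider rule all 10 genes had a candidate in each list. So did 74.4% of protein-coding and 79.7% of miRNA genes in the pooled list, 81.6% and 87.7% in replicate 1, and 78.5% and 83.1% in replicate 2.

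Each of the 15 linked optimal peaks overlapped a candidate in both replicates. In 11 of them (73.3%) both candidates were among the 1563 strongest of their list, a share close to the 69.9% of all optimal peaks. The exceptions were 3 lin-14 peaks and the let-7 peak. Median signal was 89.8 for the linked peaks, 8 of them at lin-14, and 89.8 for the list as a whole. By gene, the strongest linked peaks of puf-9, lin-41, lin-42, lin-28 and lin-14 were above that value and the let-7 peak just below it, at 87.0. The median distance between replicate summits was 11 bp for the linked peaks and 23.5 bp for all optimal peaks. Of the 15 peaks 10 lay on chromosome X, 8 of them at lin-14. Of the other 7, 2 did (28.6%), beside 17.3% of all optimal peaks.

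**Figure D5:**
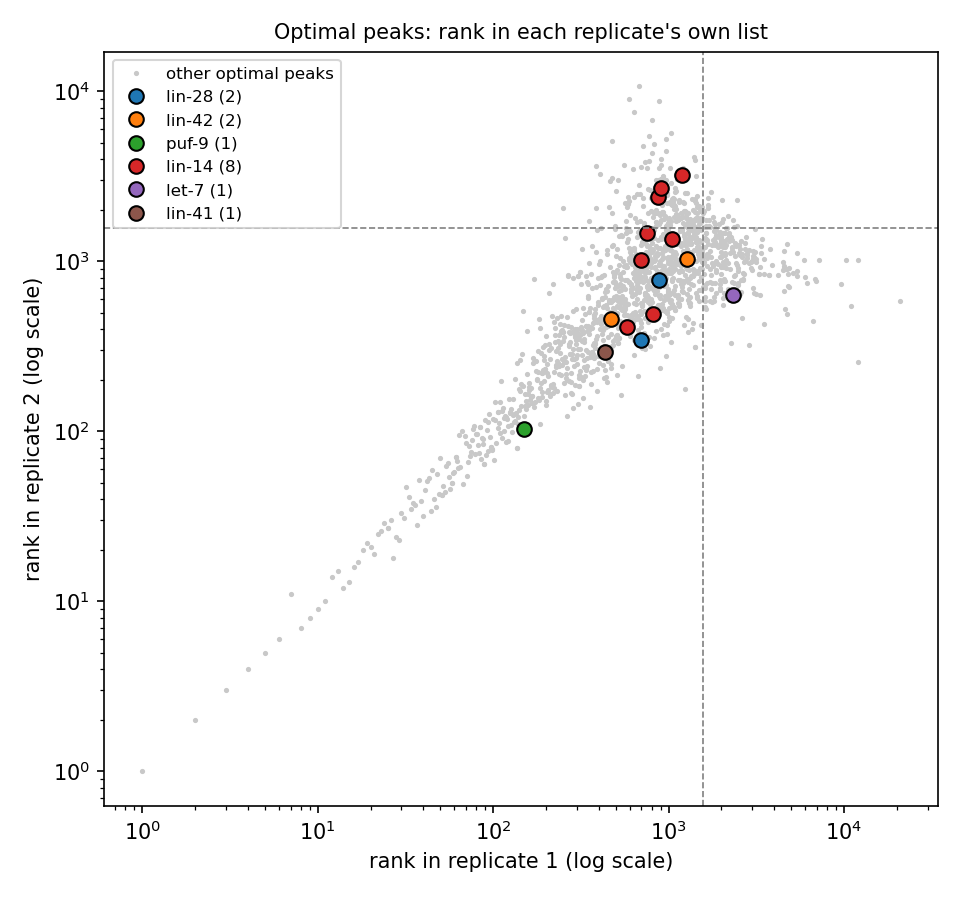
Rank of each optimal peak in replicate 1 (x axis) and replicate 2 (y axis), both log scales, for peaks with a candidate in both. Coloured points are the 15 peaks linked to timing genes and dashed lines mark rank 1563. The let-7 peak lies to the right of the vertical line and 3 lin-14 peaks above the horizontal one.

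Of the 15 summit windows, 5 (33.3%) held GAGAGA, beside 29.8% of all 1563 optimal windows and 10.2% of windows at pooled candidates outside the optimal list. They were those of the stronger lin-28 summit, the intronic lin-42 summit, 1 lin-14 summit, let-7 and lin-41. ACGCAG was found in 1 (6.67%), at lin-41, beside 18.7% of all optimal windows and 4.04% of those outside the list. CGTCTC was found in 1 (6.67%), at puf-9, beside 20.8% and 5.50%. No motif of the 3 was found in 9 of the 15 windows and in 829 of all 1563 (53.0%). At lin-14 it was 7 of 8, including the start summit printed above. These counts depended on the window: over the whole peak, usually 390 bp, 3 of the 15 and 2 of the 8 lin-14 peaks held none, beside 28.3% of all optimal peaks, and the lin-14 start peak held CGTCTC. Over the whole peak 5 of the 15 (33.3%) held CGTCTC, near the 39.3% of all optimal peaks. Mean GC content was 50.4% over the lin-14 windows, 47.7% over all optimal windows and 38.5% over those outside the list. Because the motifs came from summits of this same list, the shares inside and outside it are no test of enrichment.

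The wider timing network was described through 33 further genes, all found in the annotation. Of 7 miRNA genes of the let-7 and lin-4 families, mir-48 and mir-241 had an optimal summit within 500 bp, and 4 had one by the wider rule. Of the 7, mir-48, mir-241, mir-84 and mir-237 are printed with let-7 and lin-4, because they are those with an optimal summit by the wider rule and have the same seed, bases 2 to 8 in capitals, as one of the pair. The other 3 (mir-793, mir-794 and mir-795) are not printed and had no optimal summit by either rule, and the annotated product of mir-793 has a seed that differs from that of let-7. Mature sequences are from the RefSeq annotation of WBcel235.
let-7: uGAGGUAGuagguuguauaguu
mir-48: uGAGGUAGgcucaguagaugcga
mir-241: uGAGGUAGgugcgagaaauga
mir-84: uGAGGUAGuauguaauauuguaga
lin-4: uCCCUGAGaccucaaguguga
mir-237: uCCCUGAGaauucucgaacagcu

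mir-48 and mir-241 act with mir-84 to repress hbl-1 and are neighbours on chromosome V. The mir-48 summit, 179 bp upstream, had a signal of 89.8 and ranked 646 and 1022 in the replicates. The mir-241 summit, 421 bp upstream, had 109.7 and ranked 347 and 737. It lay 2.19 kb upstream of mir-48 and so counted for that gene by the wider rule too. Among the genes that share the let-7 seed, the peaks at mir-48 and mir-241 were thus nearer to their annotated starts than the one linked to let-7. These starts are not of the same kind. mir-48 is annotated only from 14364412 to 14364509 and mir-241 from 14366188 to 14366283, while the let-7 gene spans 1.73 kb. mir-84 on chromosome X had one of 117.3 at 2.28 kb upstream, and mir-237 one of 67.9 at 3.22 kb downstream.

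Of 10 genes for miRNA processing and effector proteins, 0 had an optimal summit within 500 bp and 5 had one by the wider rule. Of 16 other temporal regulators, 5 had a start summit and 10 met the wider rule. The start summits were those of lin-66 (signal 156.4), which lowers lin-28, the DAF-12 corepressor gene din-1 (118.7), the membrane-tethered transcription factor genes myrf-1 (69.8) and myrf-2 (65.7), and the nuclear receptor gene nhr-25 (61.3). The peaks of lin-66 and din-1 were among the 1563 strongest in both replicates. Those of myrf-1, myrf-2 and nhr-25 were so only in replicate 2 (ranks 728, 1152 and 1113). In replicate 1 they ranked 2484, 1725 and 1649. In sum 7 of the 33 genes (21.2%) had a start summit, and 19 (57.6%) met the wider rule, beside 4.78% and 15.1% of protein-coding genes and 9.58% and 26.1% of miRNA genes. For protein-coding genes of 10 kb or longer these shares were 7.41% and 22.0%. Of the called genes, daf-12, din-1, myrf-2 and sea-2 are that long, while dre-1, also that long, was not called. By the wider rule mir-48 and mir-241 counted as separate genes but were linked to the same 3 optimal summits.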

How the data were processed

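Deposited peak lists on ce11 (the WBcel235 assembly) were used for 2 biological replicates: candidate regions of each replicate, of both pooled, and an optimal list kept after an irreproducible discovery rate step, per the deposited text listings. The authors' signal values and their −log10 q values were taken as deposited. The latter reached a ceiling of 3.53 at all 1563 optimal peaks, so ranks rest on signal. The 1563 optimal peaks were exactly the top of the pooled list by signal. Aligner, peak caller, threshold and read numbers are not given in the sources used here, so depth is unknown and no interval or floor is given. The ce10 lists were not used.

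Summits were set against transcript starts of Ensembl release 115 (protein-coding transcripts for protein-coding genes, primary and precursor transcripts for miRNA genes), with Python 3.11.15 and numpy 2.4.6. Coordinates are 1-based. Each optimal peak was matched to the strongest candidate of a replicate that overlapped it by at least 1 bp. A candidate could thus be matched to more than 1 optimal peak. Window rules were tested on simulated summits. The members, gene lists, motifs and windows were chosen with earlier results of these data known, and no statistical test was run. Named genes were the 10 members, further pathway genes with an optimal start summit, genes whose start is near a member's summit or that host or neighbour it, and the protein-coding genes next in start signal. Genes named for their number of summits were named after values were seen. Alternatives were other windows, peak thresholds, assignments, annotations and single replicates.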

Additional observations from a re-analysis of the deposited data

How the results depend on the processing

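The count of 4 timing genes with an optimal summit within 500 bp fell to 2 with the 781 strongest optimal peaks (lin-28 and puf-9) and to 2 with 250 bp (lin-28 and lin-14). Single-replicate lists of equal size gave 3 to 4, lin-14 being the call lost without replicate 1. By the wider rule the count of 6 stayed between 5 and 7, and at 6 for either replicate alone, but without replicate 2 lin-46 replaced let-7. The 8 genes with a pooled start candidate fell to 4 with 250 bp, and were 8 to 9 for single replicates. Windows with ACGCAG rose from 1 to 3 with 100 bp either side or the whole peak, those with GAGAGA from 5 to 8 and 10, and those with CGTCTC from 1 to 2 and 5. Longer windows hold more matches anywhere: over all optimal peaks the share with CGTCTC rose too, from 20.8% to 31.4% and 39.3%. Such shares for ACGCAG and GAGAGA are not given here, so their rise says nothing particular to these genes. Over the whole peak the count with none of these motifs fell from 9 to 3, and at lin-14 from 7 to 2 (windows for CGTCTC and for none added after seeing the data). The 8 lin-14 summits fell to 3 with those 781, and were 5 to 8 for single replicates, an alternative chosen after seeing the data. Of 90 single-gene calls under alternatives 6 changed, 3 at lin-42, 2 at lin-14 and 1 at puf-9. All 6 were losses of a start call, and none fell on the 6 genes without one. Of the 4 called genes only lin-28 kept its call under every alternative. No paired analysis was possible because there is 1 group and the results come from no test.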
